A study of Homo sapiens with 15 samples.

Results

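The genes described here are 9 histone acetyltransferases and large partners of these enzymes: EP300, CREBBP, EP400, TRRAP, KAT2A, KAT2B, KAT5, KAT6A and KAT6B. They were chosen by symbol from a table of 37787 genes, and all 9 were among the 13868 genes that passed the filter on low counts. Their RNA was measured in HGrC1, an immortalized line of human granulosa cells, non-luteinized and carrying normal alleles of FOXL2, in 15 libraries from 5 conditions with 3 replicates each, named A, B and C. Cells received empty plasmids (Vectors), SMAD3 with wild-type FOXL2 (FOXL2WT), SMAD3 with the FOXL2 mutant of adult granulosa cell tumors (FOXL2C134W), or either of the last 2 together with a constitutively nuclear form of FOXO1 (FOXL2WT + FOXO1 and FOXL2C134W + FOXO1). Transfection was transient, lasted 4 h and was followed by 24 h without serum, so each library is a mixture of cells that took up plasmid and cells that did not. SMAD3 was co-transfected in every condition but Vectors, and comparisons with Vectors therefore change FOXL2 and SMAD3 together. The sources call the libraries replicates without saying that they came from separate cultures, so p-values measure only the spread between these libraries, which may be technical.

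Histone acetyltransferases transfer acetyl groups from acetyl-CoA to lysines of histone tails, which loosens chromatin and creates docking sites for bromodomain proteins. EP300 (p300) and CREBBP (CBP) are paralogous coactivators that are recruited by many transcription factors, SMAD3 and FOXO1 among them. KAT5 (TIP60) is the catalytic subunit of the NuA4/TIP60 complex, in which EP400 is an ATPase that exchanges histone variants and TRRAP is a scaffold without catalytic activity that binds activators. KAT2A (GCN5) and KAT2B (PCAF) are alternative catalytic subunits of the SAGA and ATAC complexes, of which SAGA also contains TRRAP, and KAT6A (MOZ) and KAT6B (MORF) acetylate histone H3 together with BRPF scaffold proteins.

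On GRCh38 with GENCODE 44, EP300 lies on chromosome 22 from 41092592 to 41180077 and CREBBP on chromosome 16 from 3725054 to 3880713. EP400 lies on chromosome 12 from 131949942 to 132080460 and TRRAP on chromosome 7 from 98877933 to 99050831. KAT5 lies on chromosome 11 from 65711996 to 65719604, KAT2A on chromosome 17 from 42113111 to 42121367 and KAT2B on chromosome 3 from 20040446 to 20154404. KAT6B lies on chromosome 10 from 74824927 to 75032624.

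Promoter sequences of EP400, CREBBP and EP300, the 3 members called in the interaction test described further on, are shown for reference, as the 250 bases before the annotated start (RefSeq, GRCh38.p14, 5′ to 3′ on the strand of the gene). Capitals mark the SMAD motif CAGAC on either strand, read as GTCTG on the other, and the forkhead motif GTAAACA was searched in the same way. Both motifs were chosen after the sequences had been seen.
EP400 promoter, chr12:131949692-131949941, + strand: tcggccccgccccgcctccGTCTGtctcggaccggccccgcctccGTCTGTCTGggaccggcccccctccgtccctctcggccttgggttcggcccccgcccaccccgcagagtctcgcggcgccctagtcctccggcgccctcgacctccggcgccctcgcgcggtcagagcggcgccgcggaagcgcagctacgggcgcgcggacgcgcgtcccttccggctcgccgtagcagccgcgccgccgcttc
CREBBP promoter, chr16:3880714-3880963, - strand: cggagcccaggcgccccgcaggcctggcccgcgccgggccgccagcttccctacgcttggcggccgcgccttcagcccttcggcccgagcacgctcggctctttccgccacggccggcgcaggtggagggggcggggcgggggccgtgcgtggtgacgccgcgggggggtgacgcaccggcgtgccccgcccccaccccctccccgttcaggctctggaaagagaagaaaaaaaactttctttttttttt
EP300 promoter, chr22:41092342-41092591, + strand: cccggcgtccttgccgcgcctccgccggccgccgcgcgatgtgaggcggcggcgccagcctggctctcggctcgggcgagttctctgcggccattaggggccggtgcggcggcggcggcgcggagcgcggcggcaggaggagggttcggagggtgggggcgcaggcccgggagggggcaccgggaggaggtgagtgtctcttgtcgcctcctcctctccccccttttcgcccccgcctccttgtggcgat
The EP400 window held 3 CAGAC sites, 2 of which overlap, and the CREBBP and EP300 windows held 0. None of the 3 windows held GTAAACA. Over 35116 promoter windows of the same length, 38.0% held CAGAC and 2.98% held GTAAACA, so the motif found in EP400 is a common one. All 3 windows were rich in G and C, at 79.2% for EP400, 72.4% for CREBBP and 76.8% for EP300. The table held promoters of 7 of the 9 genes. TRRAP and KAT6A were not among them. Of the windows not shown, that of KAT2A held 2 CAGAC sites, those of KAT6B held 1, 0 and 2, and those of KAT2B and KAT5 held 0. A second CREBBP window, chr16:3880121-3880370, with 84.0% G and C, held 0 and is not shown either.

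Libraries held 14962245 to 25339094 estimated counts, and the members had 211 to 2253 counts in a library. CPM stands for counts relative to library size, with TMM factors. FOXL2 was at 8.28 to 9.54 CPM in Vectors, 554 to 566 in FOXL2WT, 121 to 175 in FOXL2C134W, 374 to 401 in FOXL2WT + FOXO1 and 139 to 176 in FOXL2C134W + FOXO1. SMAD3 was unequal too, at 240 to 263 CPM, 2590 to 2890, 812 to 885, 957 to 976 and 379 to 411 in that order. FOXO1 was at 11.6 to 13.8 CPM in the 9 libraries without its plasmid, 104 to 132 in FOXL2WT + FOXO1 and 39.1 to 47.2 in FOXL2C134W + FOXO1. The conditions thus differed in the amount of plasmid RNA as well as in its kind, and the part of this difference in the results was not tested. Of the granulosa markers, GATA4 was at 129 to 155 CPM, WT1 at 38.6 to 47.6 and KITLG at 30.2 to 39.9, whereas FSHR and LHCGR had 0 counts in every library and CYP19A1 at most 4. INHA had at most 4 counts and AMHR2 at most 7. The others were low, at 0.741 to 1.95 CPM for AMH, 0.761 to 2.34 for INHBB, 1.37 to 3.88 for STAR and 2.34 to 5 for HSD17B1. NR5A1 was at 3.8 to 6.41 CPM and INHBA at 6.57 to 9.22. The leukocyte marker PTPRC had at most 5 counts in a library, although CD68, which other cells also express, was at 88.2 to 118 CPM. The epithelial marker EPCAM was at 4.75 to 7.67 CPM, and CDH1 had at most 12 counts. The endothelial markers CDH5 and PECAM1 were at 2.2 to 4.6 and 0.668 to 2.34 CPM. The theca markers CYP17A1 and INSL3 had at most 1 and 3 counts. All marker CPM are without TMM factors.

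EP300, CREBBP, EP400, TRRAP and KAT6B were higher in FOXL2C134W than in FOXL2WT, and no member was lower. Called genes had an adjusted p (edgeR quasi-likelihood test, Benjamini-Hochberg over all genes tested) under 0.05. Of all genes tested, 7.13% were called higher in this comparison, and of the 921 genes with transcripts of at least 7000 bases 32.9% were, a class to which 6 of the 9 members belong. The median log2 difference was 0.47 over the 9 members and -0.0115 over all genes.

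**Figure D1:**
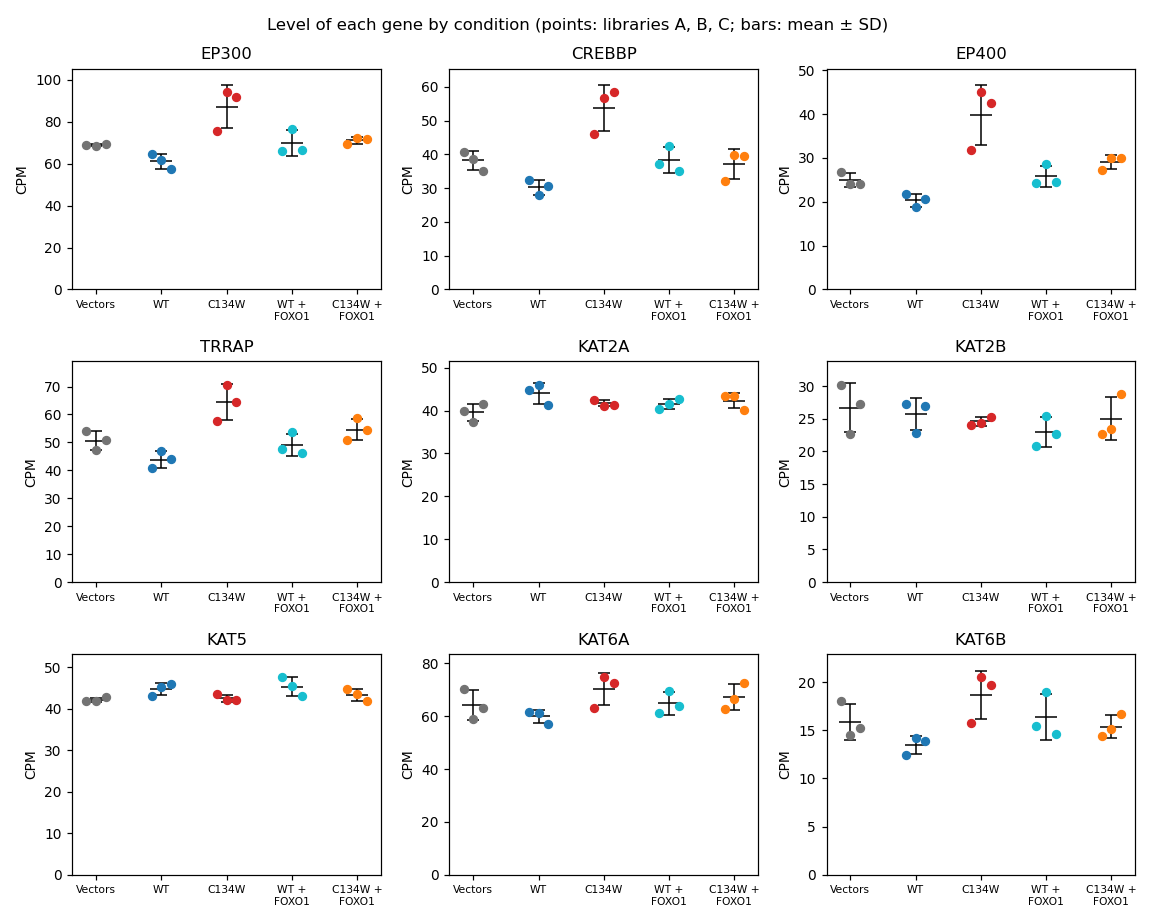
Level of each of the 9 genes in CPM (vertical axis from 0) in the 5 conditions (horizontal axis); points are libraries A, B and C and bars are the mean ± SD of 3 libraries. For EP300, CREBBP, EP400, TRRAP, KAT6A and KAT6B all 3 FOXL2C134W libraries lie above all FOXL2WT libraries, whereas KAT2A, KAT2B and KAT5 stay at a similar height throughout.

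EP300 was at 64.5, 61.6 and 57.4 CPM in FOXL2WT replicates A, B and C and at 75.4, 94.1 and 91.9 CPM in FOXL2C134W. The groups did not overlap, and FOXL2C134W replicate A was the lowest of its group. EP300 was 1.43-fold higher in FOXL2C134W, a log2 difference of 0.51 with an SE of 0.073 (adjusted p = 0.00023). The call was lost in DESeq2 with the average transcript length of the gene in each library as an offset (0.29, adjusted p = 0.48).

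CREBBP, its paralog, was at 32.4, 28.1 and 30.5 CPM in FOXL2WT and at 45.9, 56.7 and 58.4 CPM in FOXL2C134W. Again the groups were separate and replicate A was the lowest of the mutant group. The difference was 1.76-fold, with a log2 value of 0.82 and an SE of 0.10 (adjusted p = 6e-05).

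EP400, the ATPase of the TIP60 complex, had the largest difference of the 9 genes. Its level was 21.8, 18.9 and 20.6 CPM in FOXL2WT and 31.9, 45.0 and 42.5 CPM in FOXL2C134W, again without overlap and with replicate A lowest. EP400 was 1.94-fold higher, a log2 difference of 0.96 with an SE of 0.11 (adjusted p = 2.4e-05), and ranked 26 by p among all genes tested.

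TRRAP, the scaffold shared by the TIP60 and SAGA complexes, was at 40.7, 46.8 and 44 CPM in FOXL2WT and at 57.8, 70.6 and 64.6 CPM in FOXL2C134W. The 1.47-fold difference (log2 0.56, SE 0.080) passed the test with an adjusted p of 0.00024. KAT5, the catalytic subunit that works with EP400 and TRRAP, did not follow them. It was at 43.2, 45.2 and 45.9 CPM in FOXL2WT and at 43.6, 42.2 and 42.1 CPM in FOXL2C134W, with overlapping groups. The log2 difference of KAT5 was -0.072 with a 95% interval from -0.176 to 0.033, so a rise of the size seen for EP400 lies outside it.

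KAT6B was at 12.4, 14.2 and 13.9 CPM in FOXL2WT and at 15.8, 20.5 and 19.7 CPM in FOXL2C134W, a log2 difference of 0.47 with an SE of 0.12 (adjusted p = 0.014). Its call was the least stable of the 5: the adjusted p was 0.068 without FOXL2WT replicate A, 0.076 without FOXL2C134W replicate B and 0.060 without FOXL2C134W replicate C, and in DESeq2 with transcript length offsets the difference was 0.14 (adjusted p = 0.81). KAT6A, its paralog, was at 61.8, 61.1 and 57.2 CPM against 63.3, 74.7 and 72.5 CPM. These groups did not overlap either, but the log2 difference of 0.23 (SE 0.075) was not called at an adjusted p of 0.060. It passed without FOXL2C134W replicate A, at 0.30 with an adjusted p of 0.0095.

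KAT2A and KAT2B, the catalytic subunits of SAGA and ATAC, had similar levels in both conditions. KAT2A was at 44.7, 46.0 and 41.2 CPM in FOXL2WT and at 42.5, 41.1 and 41.4 CPM in FOXL2C134W, a log2 difference of -0.074 with a 95% interval from -0.19 to 0.042. KAT2B was at 27.2, 22.9 and 26.9 CPM and at 24.1, 24.4 and 25.3 CPM, a difference of -0.069 with an interval from -0.291 to 0.153. Of the 9 members, 6 had groups that did not overlap, against 30.4% of all genes.

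**Figure D2:**
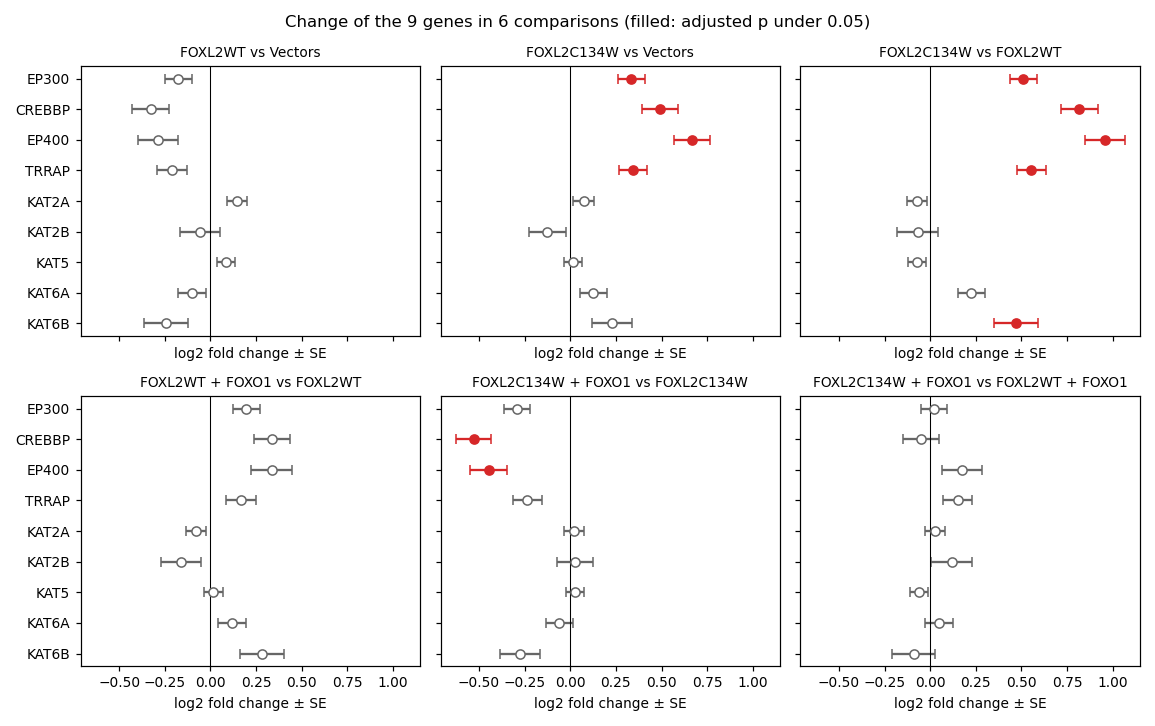
Log2 fold change ± SE (horizontal axis) of each of the 9 genes (vertical axis) in 6 comparisons, with filled red points for an adjusted p under 0.05. EP300, CREBBP, EP400 and TRRAP are filled in both comparisons of FOXL2C134W without FOXO1, and CREBBP and EP400 lie to the left of 0 when FOXO1 was added to FOXL2C134W.

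The 5 called members share a long transcript. The length, averaged over transcripts by their reads, was 8578 bases for EP300, 8628 for CREBBP, 11808 for EP400, 12168 for TRRAP and 7325 for KAT6B, against a median gene of 2714 bases. KAT6A, at 8432 bases, is equally long, while KAT2B has 4374, KAT2A 3008 and KAT5 1788 bases. Over all genes the difference between FOXL2C134W and FOXL2WT also moved with length: its median was -0.0969 for genes under 1000 bases and 0.174 at 7000 bases and over. The trend differed between libraries of the same condition. For each library, the log2 level minus the mean of all 15 libraries was regressed on length, so the slopes are relative to the average library. Per doubling of length, the slope was 0.0783 in FOXL2C134W replicate B and 0.0711 in replicate C. It was -0.0021 in replicate A, the library of this group in which the long members were lowest. In FOXL2WT it was -0.0394 to -0.0258. The slope ran from -0.0812 to 0.00235 in FOXL2WT + FOXO1, from -0.00255 to 0.0549 in FOXL2C134W + FOXO1 and from -0.034 to 0.0247 in Vectors.

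When the length trend of each library was removed with offsets, the 5 calls held with smaller differences. The log2 difference became 0.33 for EP300 (SE 0.050, adjusted p = 0.00022), 0.64 for CREBBP (SE 0.079, adjusted p = 3.9e-05), 0.70 for EP400 (SE 0.073, adjusted p = 4e-06), 0.30 for TRRAP (SE 0.055, adjusted p = 0.0014) and 0.32 for KAT6B (SE 0.095, adjusted p = 0.033). KAT6A fell to 0.052 (adjusted p = 0.57).

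**Figure D3:**
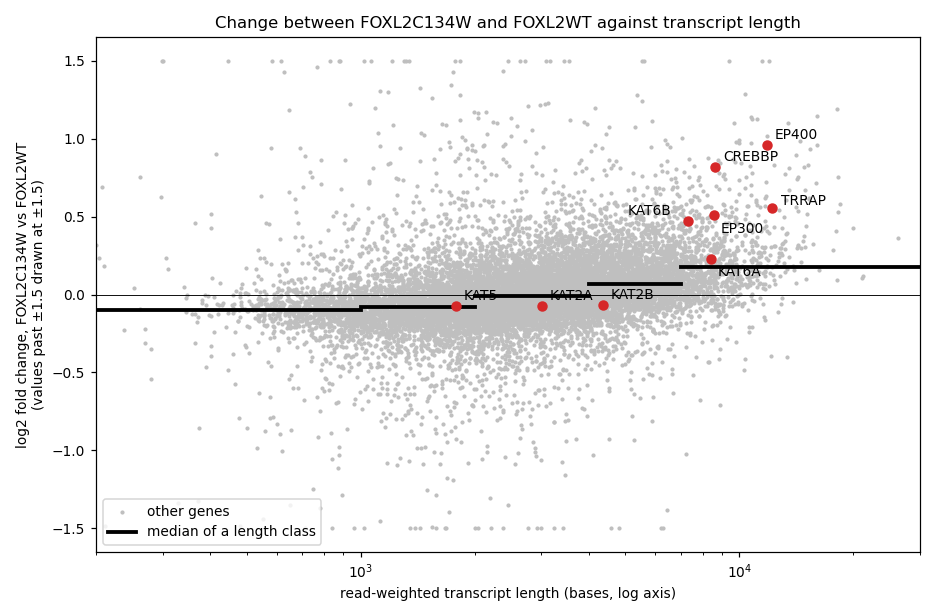
Log2 fold change between FOXL2C134W and FOXL2WT (vertical axis, drawn to ±1.5) against read-weighted transcript length in bases (horizontal log axis) for all genes tested; red points are the 9 genes and black lines the median of each length class. The medians climb from -0.0969 to 0.174 with length, and EP400 and CREBBP lie furthest of the 9 genes above the line of their class.

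Wild-type FOXL2 with SMAD3 changed no member past the test against Vectors, where 6.07% of all genes were called. The libraries of EP300, CREBBP, EP400, TRRAP, KAT5 and KAT6B did not overlap between these conditions, 6 of 9 genes against 31.1% of all genes. Of these, KAT5 was higher in FOXL2WT (log2 difference 0.086, adjusted p = 0.35) and the others were lower. EP300 was at 68.9, 68.6 and 69.6 CPM in Vectors, above all FOXL2WT libraries, with a log2 difference of -0.18 (SE 0.074, adjusted p = 0.18). CREBBP was at 40.6, 38.7 and 35.2 CPM in Vectors (log2 difference -0.33, SE 0.10, adjusted p = 0.067), and EP400 at 26.9, 24.1 and 24.0 CPM (-0.29, SE 0.11, adjusted p = 0.14). The unadjusted p was under 0.05 for 5 of the 9 members: EP300 (0.029), CREBBP (0.0051), EP400 (0.018), TRRAP (0.019) and KAT2A (0.017), the last with the opposite sign. Such values were common among all genes: the p of EP300 ranked 2215 among the 13868 genes tested. DESeq2 called 1 member, CREBBP (adjusted p = 0.022), beside 1006 of all genes. A fit of these 2 conditions alone called 4 members, EP300, CREBBP, EP400 and TRRAP. That fit called 1690 of all genes, against 842 in the main fit.

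FOXL2C134W with SMAD3 raised 4 members above Vectors, whereas 7.48% of all genes and 23.3% of genes of at least 7000 bases were called higher. The log2 difference was 0.67 for EP400 (SE 0.10, adjusted p = 0.00023), 0.49 for CREBBP (SE 0.097, adjusted p = 0.0020), 0.35 for TRRAP (SE 0.078, adjusted p = 0.0056) and 0.33 for EP300 (SE 0.072, adjusted p = 0.0038). TRRAP in Vectors was at 54.0, 47.1 and 50.7 CPM. With length offsets these became 0.50, 0.38, 0.17 and 0.22, all still called. In DESeq2 with transcript length offsets EP300 turned to -0.115 (adjusted p = 0.85). KAT6B (0.23, adjusted p = 0.20) and KAT6A (0.13, adjusted p = 0.29) did not pass, and KAT2A, KAT2B and KAT5 lay between -0.12 and 0.073. The comparisons with Vectors and with FOXL2WT use the same FOXL2C134W libraries.

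CREBBP and EP400 were lower in FOXL2C134W + FOXO1 than in FOXL2C134W. Of all genes 0.707% were called lower, and of genes of at least 7000 bases 3.69%. SMAD3 RNA was lower with FOXO1 as well, at 379 to 411 CPM against 812 to 885, and its part in these decreases was not tested. The libraries of 3 members did not overlap, against 14% of all genes. CREBBP was at 32.0, 39.9 and 39.4 CPM in FOXL2C134W + FOXO1, below all FOXL2C134W libraries. Its log2 difference was -0.53 (SE 0.097, adjusted p = 0.017). EP400 was at 27.2, 30.1 and 30.1 CPM, also below all FOXL2C134W libraries, with a difference of -0.45 (SE 0.10, adjusted p = 0.045).

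EP300 was at 69.2, 72.1 and 71.9 CPM with FOXO1, without overlap, but its difference of -0.29 (SE 0.072) had an adjusted p of 0.062. TRRAP was at 50.8, 58.6 and 54.4 CPM, overlapping FOXL2C134W (difference -0.23, adjusted p = 0.20). KAT6B was at 14.4, 15.1 and 16.7 CPM (-0.28, adjusted p = 0.34). KAT2A, KAT2B, KAT5 and KAT6A had differences from -0.059 to 0.027. The calls for CREBBP and EP400 were sensitive to single libraries: each held in 2 of 6 fits that left out a library. Without FOXL2C134W replicate B the adjusted p was 0.098 for CREBBP and 0.22 for EP400, without replicate C 0.12 and 0.23, and without FOXL2C134W + FOXO1 replicates A and C 0.16 and 0.065 for CREBBP and 0.30 and 0.10 for EP400. Without FOXL2C134W replicate A, 4 members were called lower. That fit called 355 of all genes in either direction, against 99 with all libraries. In DESeq2 with transcript length offsets neither CREBBP (-0.75, adjusted p = 0.14) nor EP400 (-0.47, adjusted p = 0.21) was called. With length offsets in edgeR 3 members were, EP300 (-0.21, adjusted p = 0.039), CREBBP (-0.45, adjusted p = 0.0080) and EP400 (-0.33, adjusted p = 0.023), beside 128 of all genes.

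In FOXL2WT + FOXO1 no member differed from FOXL2WT past the test, and 0.0505% of all genes were called. SMAD3 RNA was lower with FOXO1 here too, at 957 to 976 CPM against 2590 to 2890. FOXL2 RNA was at 374 to 401 CPM against 554 to 566. The libraries of EP300, CREBBP, EP400 and KAT6B did not overlap, 4 of 9 genes against 14.5% of all genes. The differences were positive for CREBBP (0.34, SE 0.10, adjusted p = 0.32), EP400 (0.33, SE 0.11, adjusted p = 0.37) and EP300 (0.20, SE 0.075, adjusted p = 0.46). CREBBP was at 37.3, 42.6 and 35.2 CPM and EP400 at 24.2, 28.6 and 24.5 CPM in FOXL2WT + FOXO1, all above the FOXL2WT libraries. The unadjusted p of these 3 genes was 0.0044, 0.0077 and 0.017, and that of KAT6B was 0.030. DESeq2 called 0 members here, beside 62 of all genes.

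The effect of FOXO1 in FOXL2C134W minus its effect in FOXL2WT was tested as an interaction, for which 1.38% of all genes were called, and 5.97% of genes of at least 7000 bases were called lower. It was negative and passed for CREBBP (-0.87, SE 0.14, adjusted p = 0.0065), EP400 (-0.78, SE 0.15, adjusted p = 0.014) and EP300 (-0.49, SE 0.10, adjusted p = 0.024). In DESeq2 with transcript length offsets CREBBP (-0.96, adjusted p = 0.16) and EP300 (-0.25, adjusted p = 0.85) were not called. TRRAP (-0.40, adjusted p = 0.091) and KAT6B (-0.56, adjusted p = 0.11) did not pass. Of 12 fits that each left out 1 library, CREBBP was called in 12, EP400 in 9 and EP300 in 6. EP400 lost its call without FOXL2WT replicate B (adjusted p = 0.056), FOXL2WT + FOXO1 replicate B (0.064) and FOXL2C134W + FOXO1 replicate A (0.061). EP300 lost it without FOXL2WT replicates B (0.068) and C (0.067), FOXL2C134W replicates B (0.070) and C (0.077), FOXL2WT + FOXO1 replicate B (0.091) and FOXL2C134W + FOXO1 replicate A (0.082). FOXO1 RNA was lower in FOXL2C134W + FOXO1 than in FOXL2WT + FOXO1, as given above. SMAD3 RNA was lower with FOXO1 than without it for both forms of FOXL2, by unequal amounts, and FOXL2 RNA was lower with it in FOXL2WT. The part of these differences in the interaction was not tested.

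With FOXO1 in both conditions, no member passed the test between FOXL2C134W and FOXL2WT, and 0.144% of all genes were called. The log2 difference was 0.17 for EP400 (95% interval from -0.0492 to 0.397), -0.049 for CREBBP (from -0.26 to 0.162) and 0.021 for EP300 (from -0.133 to 0.175). The upper ends of these intervals lie below the differences without FOXO1 (0.96, 0.82 and 0.51), but the 2 differences are compared directly only by the interaction given above. There EP300 was called in 6 of 12 fits that left out a library. DESeq2 with transcript length offsets called neither EP300 nor CREBBP there. FOXL2, SMAD3 and FOXO1 RNA were all lower in FOXL2C134W + FOXO1 than in FOXL2WT + FOXO1, and the part of this was not tested. The smallest unadjusted p among the members was 0.076, for TRRAP, and DESeq2 called 0 members, beside 95 of all genes.

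Levels of different genes were compared per length, in TPM, which divides the reads of each transcript by its length. In Vectors the order was KAT5 with 34.7 ± 4.20 (SD, n = 3), KAT2A with 24.5 ± 4.85, EP300 with 15.1 ± 2.21, KAT6A with 9.41 ± 1.09, CREBBP with 8.67 ± 1.95, KAT2B with 7.57 ± 1.21, TRRAP with 5.21 ± 0.385, KAT6B with 2.77 ± 0.413 and EP400 with 2.75 ± 0.414. The short catalytic subunits KAT5 and KAT2A thus had the highest TPM, and KAT6B and EP400 the lowest. Across all libraries, transcripts under 1000 bases took up to 48.0% of the TPM of KAT2A with at most 7.02% of its reads. For KAT5 these shares were up to 37.1% and 14.1%, and for EP400 both were 0%. KAT6A and CREBBP, CREBBP and KAT2B, and KAT6B and EP400 had overlapping ranges, and the other neighbors in this order did not. In FOXL2C134W, EP400 was at 4.72 ± 0.922 TPM and KAT6B at 3.14 ± 0.428, with separate ranges.

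The transcripts behind these levels were well resolved for some genes only. The 12289-base transcript EP400-204 held 94.9% of the reads of EP400 on average, and KAT2B-201 held 99.1% of those of KAT2B. EP300-201 held 54.7% to 99.5% of the reads of EP300 across libraries. CREBBP reads were divided between CREBBP-201 (48.1%) and CREBBP-202 (42.6%), and the 548-base retained-intron transcript CREBBP-204 took 35.2% of the TPM with 2.38% of the reads. TRRAP-201 ranged from 0% to 65.4% of the reads of TRRAP, among transcripts of nearly equal length. Transcripts under 1000 bases took 0% to 48.6% of the TPM of EP300, depending on the library, with at most 3.40% of its reads. In DESeq2 with the transcript length offsets that follow from these shares, 3 members, CREBBP, EP400 and TRRAP, were called between FOXL2C134W and FOXL2WT. Of all genes 764 were called in that fit.

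**Figure D4:**
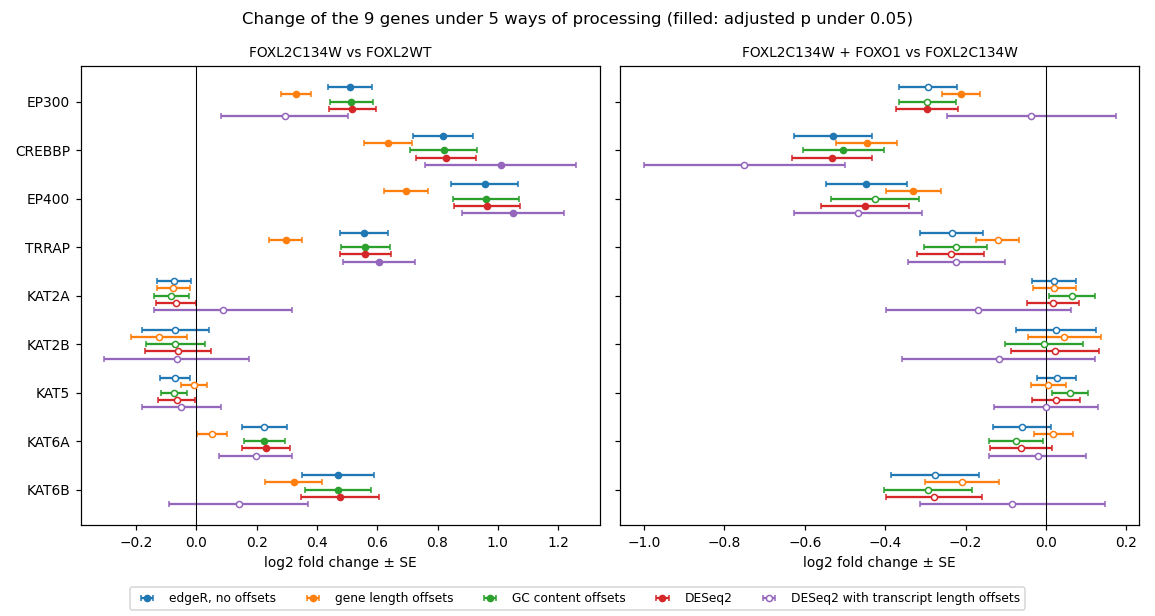
Log2 fold change ± SE (horizontal axis) of the 9 genes (vertical axis) under 5 ways of processing, shown in colors, for FOXL2C134W against FOXL2WT (left) and for FOXO1 added to FOXL2C134W (right); filled points have an adjusted p under 0.05. On the left CREBBP, EP400 and TRRAP are filled under all 5, while on the right every point from transcript length offsets is open.

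Across the 15 libraries the genes whose log2-CPM was most like that of EP300 were PCNT (Pearson r = 0.976), WNK1 (0.964) and EP400 (0.960). For EP400 they were MYH9 (0.987), EIF4G1 (0.976) and SPEN (0.975). These 6 genes have 4995 to 11816 bases, and the points share libraries, conditions and the length trend, so the values are descriptions. Within the 9 genes, r was 0.939 between EP300 and CREBBP and 0.931 between EP400 and TRRAP, but -0.462 between EP400 and KAT5.

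Over 8 lists of partner genes, 12 of 104 genes tested were called between FOXL2C134W and FOXL2WT, a share of 11.5% against 11.2% of all genes (7.13% higher and 4.12% lower), so the lists as a whole were called about as often as other genes. DESeq2 called 14 of the 104. In the NuA4/TIP60 complex, 0 of 15 other subunits were higher in FOXL2C134W than in FOXL2WT and 1 was lower, the chromodomain protein MORF4L1 (-0.13, adjusted p = 0.018), which has 1472 bases and was not called with length offsets (adjusted p = 0.43). DESeq2 called 2 of these 15 subunits, and 5 had an unadjusted p under 0.05, beside 26 of the 104 genes over all lists. Their median log2 difference was -0.0861. Of 25 SAGA and ATAC subunits tested, the ATAC subunit YEATS2 was higher (0.22, adjusted p = 0.014) and TAF9 lower (-0.17, adjusted p = 0.048), and neither was called with length offsets (adjusted p = 0.12 and 0.24). ZZZ3 was not found by this symbol in the gene table.

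Of 9 MOZ/MORF and HBO1 subunits, the scaffold proteins BRD1 (0.27, adjusted p = 0.0036) and BRPF1 (0.25, adjusted p = 0.031) were higher. BRD1 was at 29.8, 29.4 and 28.9 CPM in FOXL2WT and at 34.4, 34.6 and 37.1 CPM in FOXL2C134W, and it held with length offsets (0.21, adjusted p = 0.0076), whereas BRPF1 did not (adjusted p = 0.061). Of 13 CBP/p300 partners tested, 0 were called in this comparison by edgeR and 0 by DESeq2, and 2 had an unadjusted p under 0.05. CITED1 and PPARGC1A were too low to be tested. Against Vectors, CITED2, which competes for the CH1 domain of CBP/p300, was higher in FOXL2WT (0.22, adjusted p = 0.035), and CREM was lower in FOXL2C134W (-0.30, adjusted p = 0.0047).

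HCFC1, a chromatin cofactor in the list of MOF complexes, had a pattern like that of the large members. It was at 51.1, 52.6 and 53.9 CPM in FOXL2WT, 77.7, 91.5 and 86.3 CPM in FOXL2C134W and 56.5, 64.8 and 59.0 CPM in FOXL2C134W + FOXO1. HCFC1 was higher in FOXL2C134W (0.70, SE 0.070, adjusted p = 8.6e-06) and lower once FOXO1 was added (-0.50, SE 0.068, adjusted p = 0.0022), and its interaction was -0.74 (adjusted p = 0.0016). With length offsets these values were 0.51, -0.42 and -0.63, all called. MSL3, from the same list, was lower in FOXL2C134W (-0.21, adjusted p = 0.021), and 2 of 11 genes of this list were called in all.

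Histone deacetylases remove the acetyl groups. Of 18 deacetylases, HDAC7 (0.25, adjusted p = 0.0019) and HDAC4 (0.31, adjusted p = 0.014) were higher and HDAC3 lower (-0.16, adjusted p = 0.041), which is 3 genes or 16.7% against the 11.2% of all genes called. HDAC7 held with length offsets (adjusted p = 0.0037), and HDAC4 (0.37) and HDAC3 (0.17) did not. HDAC7, with 3991 bases, was also called in the interaction (-0.29, SE 0.065, adjusted p = 0.033). It was at 85.6, 80.4 and 84.8 CPM in FOXL2C134W and at 71.3, 75.8 and 73.1 CPM in FOXL2C134W + FOXO1, a difference not called by edgeR. Of 10 other acetyltransferases, TAF1 was higher (0.31, adjusted p = 0.043) but not with length offsets (adjusted p = 0.16).

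Against Vectors, 14 of 104 partner genes were called in FOXL2C134W, 13.5% against 14.7% of all genes. HCFC1 (0.45, adjusted p = 0.00021), BRD1 (0.32, adjusted p = 0.00048), HDAC4 (0.33, adjusted p = 0.0061), HDAC7 (0.17, adjusted p = 0.017) and BRPF1 (0.25, adjusted p = 0.023) were higher, and MSL3 was lower (-0.20, adjusted p = 0.022). FOXL2C134W also raised TADA3 (0.19, adjusted p = 0.033), TADA2A (0.28, adjusted p = 0.044) and YEATS2 (0.17, adjusted p = 0.046) of SAGA and ATAC, and lowered MORF4L1 and YEATS4 (-0.20, adjusted p = 0.042) of NuA4/TIP60. NAT10, listed with the other acetyltransferases, was higher (0.19, adjusted p = 0.0037). Over all genes the median difference from Vectors was -0.0644 under 1000 bases and 0.129 at 7000 bases and over. Results with length offsets are not given for these partner genes against Vectors. Over all comparisons, 94 of 222 values of partner genes lost their call without 1 library. Of the 104 genes, 4 were called in FOXL2WT against Vectors, 3.85% against 6.07% of all genes. FOXL2WT lowered JADE2 (-0.20, adjusted p = 0.023) and HCFC1 (-0.25, adjusted p = 0.048, but 0.0158 with an adjusted p of 0.98 in DESeq2 with transcript length offsets) and raised the splicing and SAGA subunit SF3B3 (0.12, adjusted p = 0.040). When FOXO1 was added to FOXL2C134W, HCFC1 was the 1 gene of the 8 lists called by edgeR, or 0.962% of the genes tested beside the 0.707% of all genes called lower, while DESeq2 called 4. When FOXO1 was added to FOXL2WT, 0 of 104 genes tested in these lists were called by edgeR and 1 by DESeq2, with 10 at an unadjusted p under 0.05. In that comparison the unadjusted p of 0.056 for TRRAP ranked 1383 among the 13868 genes tested. In the interaction 3 of the 104 genes were called by edgeR, 2.88% against 1.38% of all genes.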

How the data were processed

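RNA was measured in 15 HGrC1 libraries. Condition and replicate letter of each library came from its label. The authors estimated counts with Salmon 1.1.0 on hg38, from single-end reads of 75 bp, and deposited these estimated counts, summed to genes and rounded, without normalization. The TPM values deposited by the authors are Salmon output per transcript, scaled to a fixed total per library, and were used for levels per length and transcript shares. TPM was summed over the transcripts of a gene. For 9 genes, none of them described here, the 2 kinds of table disagreed by over 1 read.

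Counts were fitted for all 15 libraries together with edgeR 4.0.16 (R 4.3.3, limma 3.58.1) after filterByExpr and TMM scaling, with 1 term per condition and the quasi-likelihood test. Adjusted p-values under 0.05 over all 13868 genes were called. Intervals are 95% intervals from the same fit. On simulated counts with this design for FOXL2C134W against FOXL2WT (13741 genes), 40 of 50 genes changed 1.5-fold and 28 of 50 changed 1.25-fold were recovered. Of 50 genes changed 2-fold 40 were recovered, and 9 unchanged genes were called. The simulated libraries had no length trend, so these numbers do not cover calls that follow it. Alternatives were DESeq2 1.42.0 with and without transcript lengths, other scaling and filters, fits of fewer conditions, a replicate term, lowess offsets (span 0.3) for length and GC content, and leaving out each library. Transcript lengths were weighted by reads and GC content was taken from GENCODE 44, which held 98.4% of the transcripts and may not be the authors' release. Plasmid and endogenous RNA cannot be told apart in these counts. Figures were drawn with matplotlib 3.10.9 (Python 3.11.15, numpy 2.4.6, pandas 2.3.3).

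The 9 genes and the 8 lists of partners were chosen with earlier results of these data known. Beside the 9 genes and the transfected genes, those named are, per list and comparison, at most 4 called genes with the smallest adjusted p, and the 3 genes most correlated with EP300 and with EP400. Partner genes were rerun under the alternatives after the data had been seen. The result of 1 list is not reported here.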

Additional observations from a re-analysis of the deposited data

Results flagged for a closer look

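The effect of FOXO1 differed between FOXL2C134W and FOXL2WT for 3 of the 9 genes by the interaction test of edgeR, in which 1.38% of all genes were called and 5.97% of genes of at least 7000 bases were called lower. The log2 effect in FOXL2C134W minus that in FOXL2WT was -0.867 for CREBBP (adjusted p = 0.0065), -0.782 for EP400 (adjusted p = 0.014) and -0.49 for EP300 (adjusted p = 0.024). All 3 genes were lower with FOXO1 in FOXL2C134W and higher with it in FOXL2WT, although only the decreases of CREBBP and EP400 passed the test on their own. SMAD3 RNA was also lower with FOXO1 for both forms of FOXL2, and its part in the interaction was not tested. In DESeq2 with transcript length offsets 1 member was called, and CREBBP (adjusted p = 0.16) and EP300 (adjusted p = 0.85) were not. EP300 was called in 6 of 12 fits that each left out 1 library.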

How the results depend on the processing

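Of 627 values of the 9 genes under alternatives other than leaving out a library, 568 kept their direction and side of the threshold, 10 lost and 26 gained a call, and 23 changed sign, 22 of them in genes called under neither setting. Of the members, only EP300 between FOXL2C134W and Vectors changed sign from a called value, to -0.115 (adjusted p = 0.85) in DESeq2 with transcript length offsets. The other sign changes of that fit were KAT2A at 0.0882 between FOXL2C134W and FOXL2WT and -0.168 with FOXO1 added to FOXL2C134W, KAT2B at 0.293 and 0.228 in FOXL2WT and FOXL2C134W against Vectors, -0.117 with FOXO1 added to FOXL2C134W, -0.139 between the FOXO1 conditions and -0.0738 in the interaction, KAT6B at 0.0233 and the partner HCFC1, called before, at 0.0158 between FOXL2WT and Vectors, KAT5 at -0.203 with FOXO1 added to FOXL2WT and 0.154 between the FOXO1 conditions, and CREBBP at 0.0489 there. GC content offsets gave -0.00121 for KAT5 between FOXL2C134W and Vectors and -0.00464 for KAT2B with FOXO1 added to FOXL2C134W. Length offsets, without and with the replicate block, gave 0.0186 and 0.0187 for KAT6A with FOXO1 added to FOXL2C134W, -0.0446 and -0.0433 for EP300 and -0.0172 and -0.0173 for KAT6A between the FOXO1 conditions, and -0.0237 and -0.0234 for KAT5 in the interaction, which was -0.000523 with at least 10 counts in every library.

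The number of members called was 5 between FOXL2C134W and FOXL2WT and 3 in DESeq2 with transcript length offsets. Between FOXL2WT and Vectors it was 0, against 1 in DESeq2, 4 with a filter of at least 1 count and 4 in a fit of these conditions alone. With FOXO1 added to FOXL2C134W it was 2, against 0 in DESeq2 with transcript length offsets and in a fit of these conditions alone, 4 with the filter of at least 1 count and 1 with GC content offsets. With FOXO1 added to FOXL2WT it was 0, against 2 with the filter of at least 1 count. In the interaction it was 3, against 5 in DESeq2 and with the filter of at least 1 count and 1 in DESeq2 with transcript length offsets. The cause of these shifts was not tested.

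Over all genes, the 1560 calls between FOXL2C134W and FOXL2WT became 764 in DESeq2 with transcript length offsets, the 842 between FOXL2WT and Vectors 496, and the 2041 between FOXL2C134W and Vectors 971. The 842 became 1345 with the filter of at least 1 count and 1690 in a fit of these conditions alone. For FOXO1 added to FOXL2C134W, 99 became 223 in DESeq2, 61 with transcript length offsets, 463 with at least 1 count, 170 with at least 10 counts in every library, 35 with GC content offsets and 32 in a fit of these conditions alone. In the same order, FOXO1 added to FOXL2WT had 7, against 62, 69, 260, 13, 23 and 14, and the FOXO1 conditions had 20, against 95, 65, 446, 32, 60 and 9. With length offsets these became 30 and 55, and with the replicate block as well 25 and 48. The interaction had 192, against 365 in DESeq2, 126 with transcript length offsets and 551 with at least 1 count.

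Without 1 library, members called ranged from 4 to 6 between FOXL2C134W and FOXL2WT, from 4 to 5 between FOXL2C134W and Vectors, from 0 to 4 with FOXO1 added to FOXL2C134W and from 1 to 5 in the interaction. All genes called ranged from 772 to 2120, 1275 to 2126, 5 to 355 and 45 to 423 in the same order, from 305 to 662 between FOXL2WT and Vectors, from 2 to 7 with FOXO1 added to FOXL2WT and from 7 to 20 between the FOXO1 conditions. Sign changes of members were limited to uncalled values, with ranges of CREBBP from -0.111 to 0.0456, EP300 from -0.0149 to 0.0977, KAT6A from -0.00588 to 0.104, KAT6B from -0.173 to 0.0401 between the FOXO1 conditions, KAT2A from -0.0056 to 0.0503, KAT2B from -0.0923 to 0.0889 with FOXO1 added to FOXL2C134W, KAT2B from -0.157 to 0.0385 between FOXL2WT and Vectors, KAT5 from -0.0143 to 0.054 with FOXO1 added to FOXL2WT, KAT5 from -0.0272 to 0.0358 in the interaction.

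The replicate letters gave no sign of pairing: deviations of same-letter libraries correlated between -0.164 and 0.166, over 0.1 in 2 of 30 pairs. Different-letter libraries correlated between -0.122 and 0.123, over 0.1 in 4 of 60 pairs. These correlations cannot show that the letters mark no shared batch. With the replicate block 1 member was called with FOXO1 added to FOXL2C134W, as EP400 had an adjusted p of 0.053, and the number of members called was the same in the other 6 comparisons. Of 340 values of partner genes, 66 lost their call, and 94 of 222 did so without 1 library. Members had 211 to 2253 counts in a library, with the fewest in KAT6B, and counting error adds to the spread between replicates most for such a gene.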
